A study of Rattus norvegicus with 16 samples.

Results

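The genes described here are 40 cell cycle genes, a list given by symbol and set with earlier results of these data known: 27 that act in mitosis and 13 that act in S phase, when DNA is copied. Of the 40, 35 were matched to a probe and kept, 23 mitotic and 12 S phase genes, among 11592 named genes kept in all. The mitotic genes Top2a, Bub1b, Kif4a and Melk and the S phase gene Mcm5 were not matched, so no level is given for them. All 35 were well above background on all 16 arrays, so the filter on dim probes removed no matched gene. Their levels were measured in epididymal white adipose tissue, a visceral fat depot beside the epididymis, in male rat pups 30 days old. In both groups the dams ate a high-fat diet of 5.24 kcal per g while pregnant and nursing, litters were set to 10 pups, and the pups were weaned on day 21 and kept on their mothers' diet until they were killed without a fast. The dams of the HF group (8 sons) were given low-fat condensed milk alone, and those of the HFT group (8 sons) took GSPE, an extract of procyanidins from grape seed, in that milk at a daily 25 mg per kg. Animals are named by group and number. Which of them were littermates is not in the labels, and the p-values take all 8 of a group as independent.

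A dividing cell first makes the enzymes and loading factors of DNA replication, under control of the E2F factors, and later the cyclins, kinases and motor proteins of mitosis. The mitotic genes are known to be held back in resting cells and switched on late in the cycle through a short promoter element, the cell cycle genes homology region (CHR), often beside CCAAT boxes. In young fat pads the dividing cells are known to include precursors of fat cells, vessel cells and macrophages. The arrays read whole tissue, so fewer dividing cells and less RNA per dividing cell cannot be told apart.

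The 2 sets of genes differ in how many of their promoters hold each motif, and promoters of 3 mitotic and 3 S phase genes are shown as examples of the letters. The sequences are from RefSeq's rat genes (build GRCr8), 250 bases ending just before the gene's start, 5′ to 3′ along the gene. These 6 were chosen after the motifs were found, because each holds the motif of its set, and they are not clean opposites. The capitals in all 6 mark boxes of the letters CCAAT, as well as CHR elements (TTTGAA or TTCGAA) and E2F sites (TTGGCGC or TTCCCGC or TTCGCGC or TTGCCGC), each on either strand, and E2F sites can overlap. They are Cdk1 (chr20:19265043-19265292, plus strand), Cdc20 (chr5:137255800-137256049, minus strand) and Ccnb2 (chr8:79981659-79981908, minus strand) for mitosis. Cdk1 also holds 2 E2F sites and Ccnb2 holds 1, and they are the 2 mitotic promoters in which any was found.
Cdk1: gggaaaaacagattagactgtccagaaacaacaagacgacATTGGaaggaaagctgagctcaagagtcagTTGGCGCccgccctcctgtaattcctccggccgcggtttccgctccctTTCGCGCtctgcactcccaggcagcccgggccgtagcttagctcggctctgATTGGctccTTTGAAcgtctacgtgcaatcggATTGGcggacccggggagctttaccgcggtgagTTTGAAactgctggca
Cdc20: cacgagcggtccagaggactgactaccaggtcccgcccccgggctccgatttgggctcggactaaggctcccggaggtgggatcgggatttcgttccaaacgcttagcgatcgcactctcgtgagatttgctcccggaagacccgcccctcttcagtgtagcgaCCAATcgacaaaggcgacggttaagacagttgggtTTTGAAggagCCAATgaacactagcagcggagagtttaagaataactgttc
Ccnb2: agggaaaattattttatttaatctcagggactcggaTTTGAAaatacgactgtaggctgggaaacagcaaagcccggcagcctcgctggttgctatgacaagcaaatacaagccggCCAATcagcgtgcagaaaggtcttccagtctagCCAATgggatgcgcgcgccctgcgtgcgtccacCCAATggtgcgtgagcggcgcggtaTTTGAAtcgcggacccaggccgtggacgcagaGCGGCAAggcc
For S phase they are Mcm6 (chr13:42404353-42404602, minus strand), Mcm2 (chr4:122918095-122918344, minus strand) and Tyms (chr9:120776084-120776333, minus strand). Mcm2 also holds 2 CHR elements and Mcm6 holds 2 CCAAT boxes.
Mcm6: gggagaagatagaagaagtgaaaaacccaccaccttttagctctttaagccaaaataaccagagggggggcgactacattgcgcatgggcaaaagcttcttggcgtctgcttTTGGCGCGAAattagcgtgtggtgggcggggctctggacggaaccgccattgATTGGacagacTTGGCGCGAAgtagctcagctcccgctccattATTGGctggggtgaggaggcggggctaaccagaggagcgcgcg
Mcm2: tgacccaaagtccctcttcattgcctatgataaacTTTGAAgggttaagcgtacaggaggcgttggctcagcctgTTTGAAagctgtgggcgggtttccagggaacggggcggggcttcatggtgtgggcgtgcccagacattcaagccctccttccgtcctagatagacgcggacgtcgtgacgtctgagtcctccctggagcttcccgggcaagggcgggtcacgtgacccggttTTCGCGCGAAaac
Tyms: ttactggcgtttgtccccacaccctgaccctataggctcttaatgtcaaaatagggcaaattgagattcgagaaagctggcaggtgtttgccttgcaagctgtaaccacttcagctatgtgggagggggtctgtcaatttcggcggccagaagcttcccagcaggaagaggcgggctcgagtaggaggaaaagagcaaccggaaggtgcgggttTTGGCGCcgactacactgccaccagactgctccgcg
In the window that runs 50 bases past the start, 13 of 21 mitotic promoters in the table held a CHR element (61.9%), against 3 of 11 S phase promoters (27.3%) and 19.7% of all 33469 promoters. E2F sites were found in 8 of 11 S phase promoters (72.7%), in 2 of 21 mitotic ones (9.52%) and in 9.52% of all promoters. CCAAT boxes were found in 76.2% of mitotic and 63.6% of S phase promoters, against 37.5% of all. A CHR element together with a CCAAT box was found in 57.1% of the mitotic promoters and in 7.95% of all. These matches are descriptions of letters and not of bound sites. The 21 mitotic promoters include those of Top2a, Bub1b, Kif4a and Melk, and the 11 S phase promoters include that of Mcm5. None of these genes had a matched probe.

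Levels are log2 signal minus the 75th percentile of the same array, so 0 is that percentile and each unit is a doubling of signal. The 75th percentile of signal ran from 753 to 1366, and the share of probes well above background from 68.3% to 73.4%, with no saturated spot. Each of the 4 slides held 2 HF arrays at positions 1 and 2 and 2 HFT arrays at positions 3 and 4, so position and group cannot be told apart. Of 12 adipocyte markers 10 were kept, all of them well above background on every array. The same held for the 12 kept endothelial and 14 kept macrophage markers, so this does not check the tissue label. Some arrays read high for markers of neighbouring tissue. Upk3a, a protein of the urothelium that lines bladder and ureter, read 4.69 on HF 35, 4.69 on HFT 24 and 2.95 on HFT 22, and -7.85 to -5.98 on the other 13. Lcn5, a lipocalin of the epididymal duct, read 4.12 on HF 8, 4.12 on HFT 28 and 3.42 on HFT 23, and -6.23 to -2.71 elsewhere. Results are therefore given with all 16 arrays and without the 3 where Upk3a was above 0, which leaves 7 HF and 6 HFT animals.

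The mitotic genes varied together from animal to animal, and a single HFT animal, HFT 24, stood below all the others for most of them. The S phase genes did not follow it down to the same extent. For each list the mean over its genes was taken in every animal, with each gene centred on its mean over the 16 animals. The mitotic mean was lowest in HFT 24, at -1.08. It was -0.28 in HF 12 and HF 8, -0.24 in HFT 28, and between -0.10 and 0.10 in HF 10, HFT 23, HFT 22, HF 14, HFT 27, HFT 36, HFT 26 and HF 13. These means include Aurkb, described below, which read high in HF 8, HFT 28 and HFT 23. Ranks without it are not given here. At the top stood HF 11 and HF 35 at 0.48, HF 9 at 0.58 and HFT 25 at 0.60. Each group thus had animals at both ends, and the highest and the lowest animal were both HFT.

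**Figure D1:**
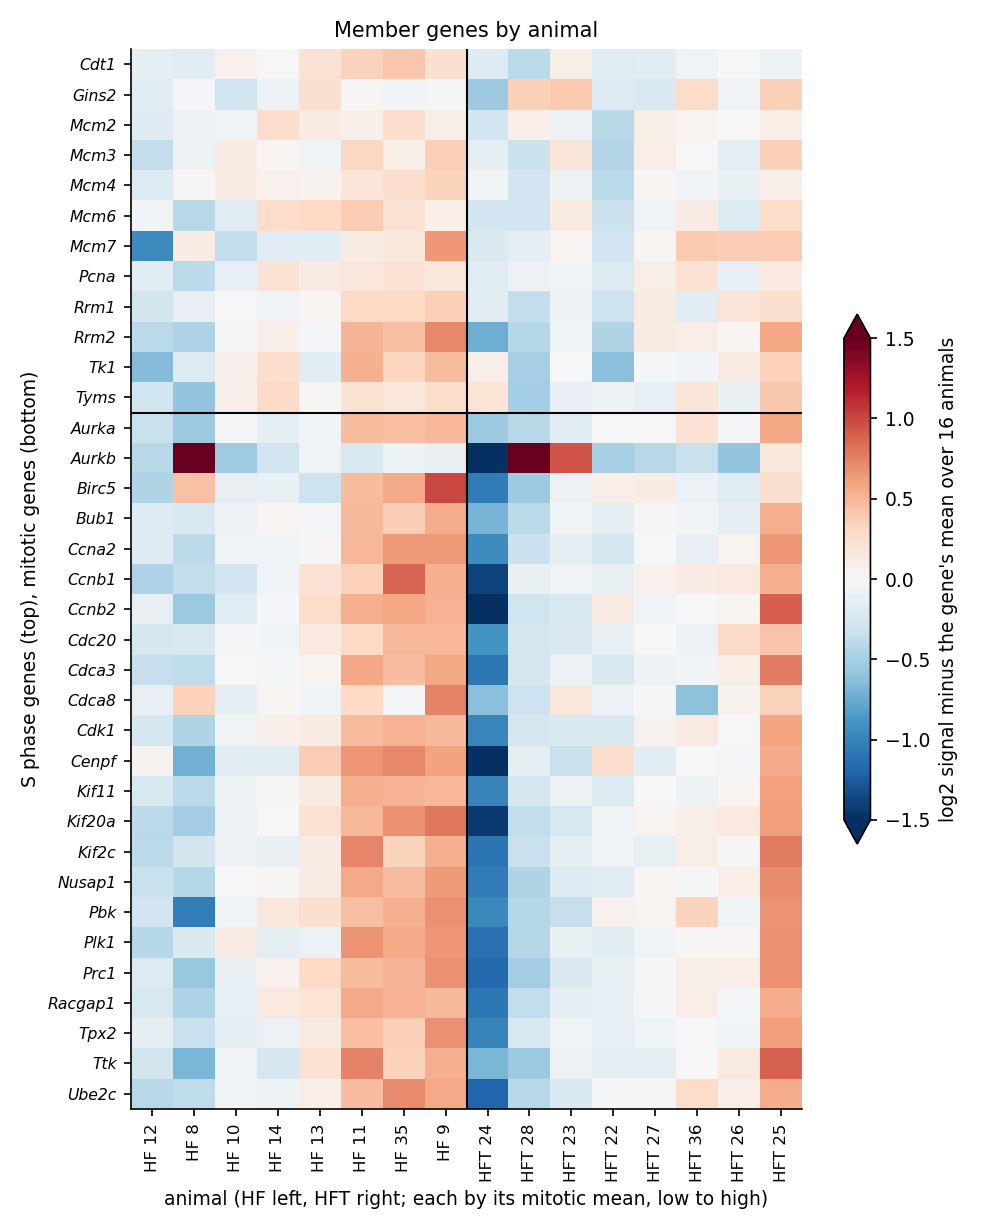
Level of the 12 S phase genes (top) and 23 mitotic genes (bottom) in each of the 8 HF (left) and 8 HFT (right) animals, as log2 signal minus the gene's mean over the 16 animals, with colour ends at -1.5 and 1.5. The mitotic rows change together along the animals, with the darkest blue column in HFT 24, and Aurkb is the row that departs from the others.

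The S phase mean ran over a narrower range. It was lowest in HFT 22, at -0.33, followed by HF 12 at -0.32, HFT 28 at -0.24 and HFT 24 at -0.21, and it was highest in HFT 25 at 0.27 and HF 9 at 0.31. HFT 24 thus had rank 1 from the bottom by mitotic genes and rank 4 by S phase genes. The S phase mean minus the mitotic mean was 0.87 in HFT 24 and between -0.33 and 0.14 in the other 15 animals. HF 9, HFT 25, HF 11 and HF 35 held the top 4 places on both lists.

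**Figure D2:**
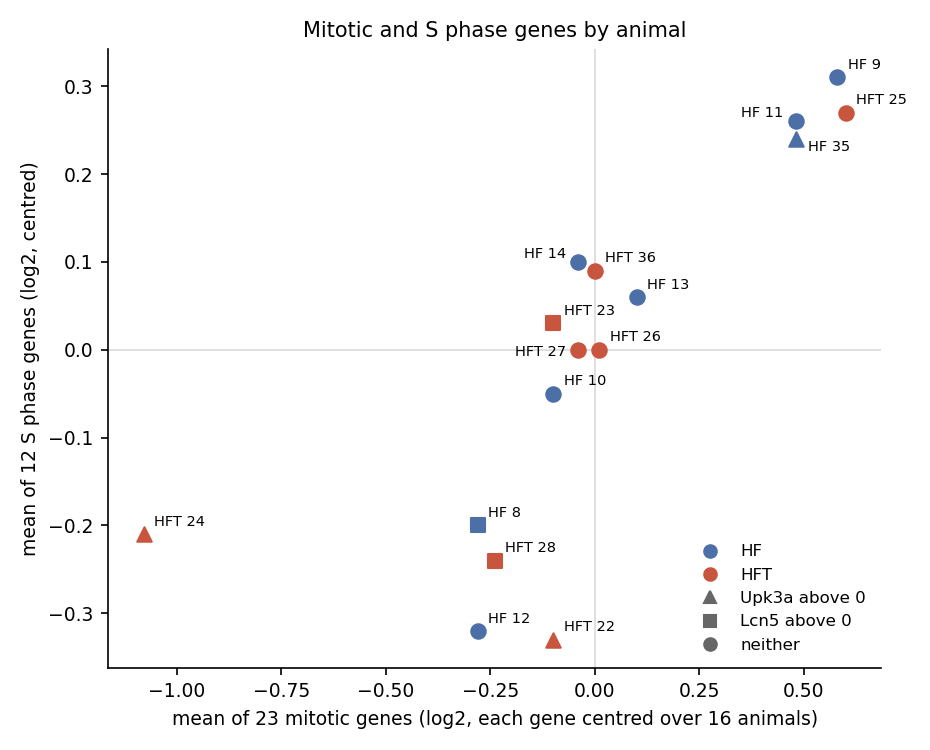
Mean of the 23 mitotic genes (x axis) against the mean of the 12 S phase genes (y axis) in each animal, both in log2 units with each gene centred over the 16 animals. Blue is HF and red HFT, triangles mark arrays with Upk3a above 0 and squares those with Lcn5 above 0, and HFT 24 lies alone at the left at -1.08.

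Over the 16 animals the median Pearson correlation between pairs of mitotic genes was 0.92, against 0.61 between pairs of S phase genes, 0.60 between a mitotic and an S phase gene and 0.02 between pairs of all named genes kept. All points share the arrays and their normalization. Without HFT 24 the 4 medians were 0.91, 0.62, 0.67 and 0.02, so the mitotic genes moved together in the other 15 animals too. The spread between animals of a group was also wider for the mitotic genes, with a median SD of 0.46 against 0.25 for S phase genes and 0.26 for all 21808 kept probes. Without HFT 24 these medians were 0.38, 0.25 and 0.26.

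HFT 24 was the lowest of the 16 animals for 20 of 23 mitotic genes and for 2 of 12 S phase genes, Rrm2 and Gins2. Over all kept probes it was lowest for 6.6%. The mitotic exceptions were Aurka and Ttk, kinases of the spindle and of its checkpoint, and Pbk, a mitotic kinase, all lowest in HF 8. For Aurka and Ttk, HF 8 and HFT 24 were level as rounded, at -1.93 and -2.66. Pbk read -4.71 in HF 8 and -4.64 in HFT 24. Relative to the mean of the other 15 animals, the mitotic genes on HFT 24 stood at a median of -1.11 and the S phase genes at -0.20. All 23 mitotic genes were more than 0.5 log2 units below that mean, as were 2 of 12 S phase genes and 7.29% of kept probes. More than 1 unit below were 18 mitotic genes, 0 S phase genes and 1.66% of kept probes. The lists fixed beside the members gave a like picture, with a median of -0.84 for 27 other mitotic genes and -0.17 for 31 other replication genes. Of these, 21 of 27 and 3 of 31 were lowest in HFT 24. Their extremes were Nek2, a centrosome kinase, at -2.01 and Gmnn, which codes for geminin, the inhibitor of the licensing factor Cdt1, at 0.54. The 16 cell cycle inhibitors had a median of -0.23 on HFT 24, with a range of -0.49 to 1.37. The 1.37 was that of Cdkn2b, which blocks the kinases Cdk4 and Cdk6. Its level was highest in HFT 24 of all animals, though low on the array at -4.02, and the list as a whole was not raised.

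**Figure D3:**
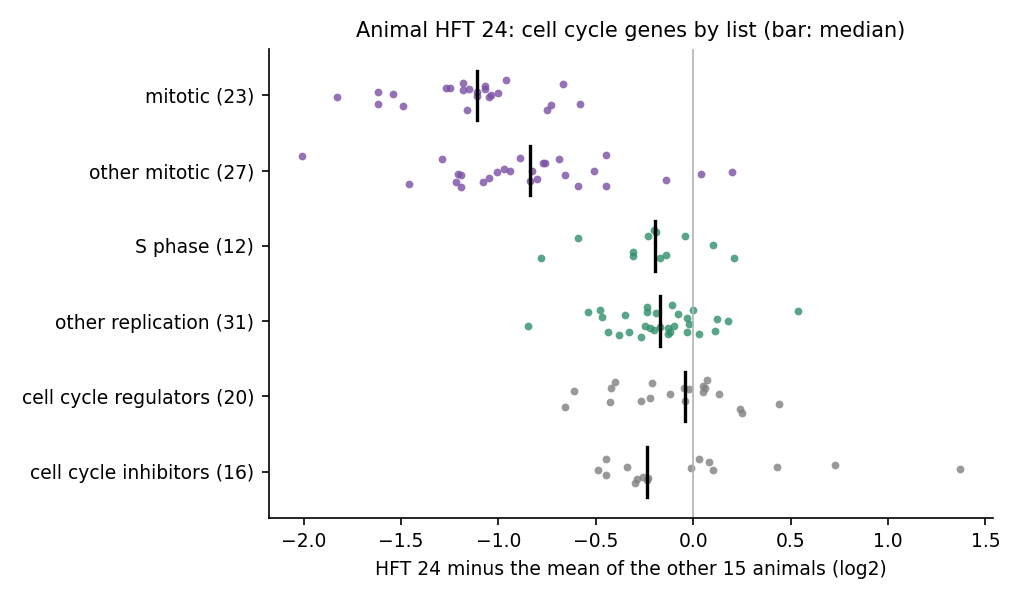
Each point is a gene, placed at its log2 level on HFT 24 minus its mean over the other 15 animals (x axis), by gene list (y axis, with the number of genes), and bars mark medians. The 2 mitotic lists lie to the left, with medians of -1.11 and -0.84, and the 2 replication lists near 0, at -0.20 and -0.17.

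The mitotic genes on HFT 24 were also split by their promoters, as a description. The median was -1.11 for the 10 kept mitotic genes with a CHR element in their window and -1.16 for the 7 without one. The other kept mitotic genes had no promoter among the sequences used. HFT 24 had a 75th percentile of 995 and 71.5% of its probes well above background, both inside the range of the others. Its urothelial markers were high, with a list mean of 3.17 over the 9 of 16 markers measured on every array, and its smooth muscle mean was 0.99 (other animals -1.01 to 3.84). Of the markers of cells that could divide, 13 of 14 macrophage, 12 of 12 endothelial, 10 of 13 preadipocyte and stromal and 7 of 10 lymphocyte genes were below the mean of the other 15 animals, against 53.3% of all kept probes. Their list means were -0.17, -0.30, -0.18 and 0.14. These lay inside the range of the other animals, which was -0.52 to 0.41 for macrophage, -0.53 to 0.32 for endothelial, -0.27 to 0.29 for preadipocyte and stromal and -0.64 to 0.41 for lymphocyte markers. The part of these tissues and cells in the mitotic values was not tested. HF 35, with the same Upk3a level of 4.69 and a urothelial mean of 3.24, had a mitotic mean of 0.48, and HFT 22, with a urothelial mean of 2.13, had -0.10.

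Between the groups no gene of either list passed the adjusted threshold. Limma called 0 of 21808 probes at an adjusted p under 0.05 (0%), and 515 (2.36%) had an unadjusted p under 0.05. Differences are HFT minus HF. All 23 mitotic genes had a difference below 0, with a median of -0.23 and a range of -0.37 to -0.078, and none had an unadjusted p under 0.05. Of the 12 S phase genes 10 were below 0, with a median of -0.12, and 2 had an unadjusted p under 0.05. Over all kept probes 56.2% were below 0, the median was -0.016, and 1.23% had an unadjusted p under 0.05 with HFT lower. Since the mitotic genes move together, their 23 signs are not independent of each other. Marker lists of other cells also stood apart in sign between the groups. Endothelial markers were below 0 in 12 of 12 genes (median -0.17) and smooth muscle markers in 9 of 9 (median -0.59). For all 9 smooth muscle markers the highest animal was HF 9. Its smooth muscle list mean was 3.84, and the next was 1.22 in HF 35. The smooth muscle differences without HF 9 are not given here. Macrophage markers were above 0 in 14 of 14 (median 0.30) and lymphocyte markers in 10 of 10 (median 0.21), against 43.8% of kept probes. An unadjusted p under 0.05 was reached by 5 macrophage markers, all higher in HFT, and by 0 of the other 3 lists, against 1.13% of kept probes with HFT higher. Blood cell markers were above 0 in 8 of 10 (median 0.29), and 3 of them reached that threshold, all higher in HFT. Of 10 adipocyte markers 1 reached it, lower in HFT. The part of these cells in the mitotic differences was not tested. Epb42, among the 3 blood cell markers, was well above background on only 7 arrays, and the lymphocyte marker Cd8a on only 6. The filter could be met in either group alone, so a dim marker could be kept through the group where it read higher. Which group kept Epb42 and Cd8a is not given here.

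The medians of both lists lay nearer to 0 without the 3 arrays with Upk3a above 0. There 16 of 23 mitotic genes were below 0, with a median of -0.027, and 8 of 12 S phase genes, with a median of -0.026. Among all kept probes 52.9% were then below 0, limma called 0 (0%), and 3.33% had an unadjusted p under 0.05. The difference was nearer to 0 for 22 of 23 mitotic and 9 of 12 S phase genes. The same count over all kept probes is not given here, and their median went from -0.016 to -0.0086. The 3 arrays left out were HFT 24, HF 35 and HFT 22, with mitotic means of -1.08, 0.48 and -0.10. The mitotic list mean was 0.12 ± 0.35 (SD, n = 8) in HF and -0.12 ± 0.46 (SD, n = 8) in HFT, a difference of -0.24. Without HFT 24 the SD of HFT was 0.27. The difference was -0.10 without HFT 24 alone and -0.027 without the arrays with Upk3a above 0. The S phase list mean was 0.049 ± 0.23 (SD, n = 8) in HF and -0.049 ± 0.20 (SD, n = 8) in HFT. Within slides the mitotic difference was -0.25, -0.43, -0.027 and -0.24, with the widest on slide 2, which held HFT 24. The S phase difference within slides was -0.21, -0.079, 0.013 and -0.12. With all arrays the median difference of S phase genes was 0.10 above that of mitotic genes, and without HFT 24 it was 0.001 above.

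**Figure D4:**
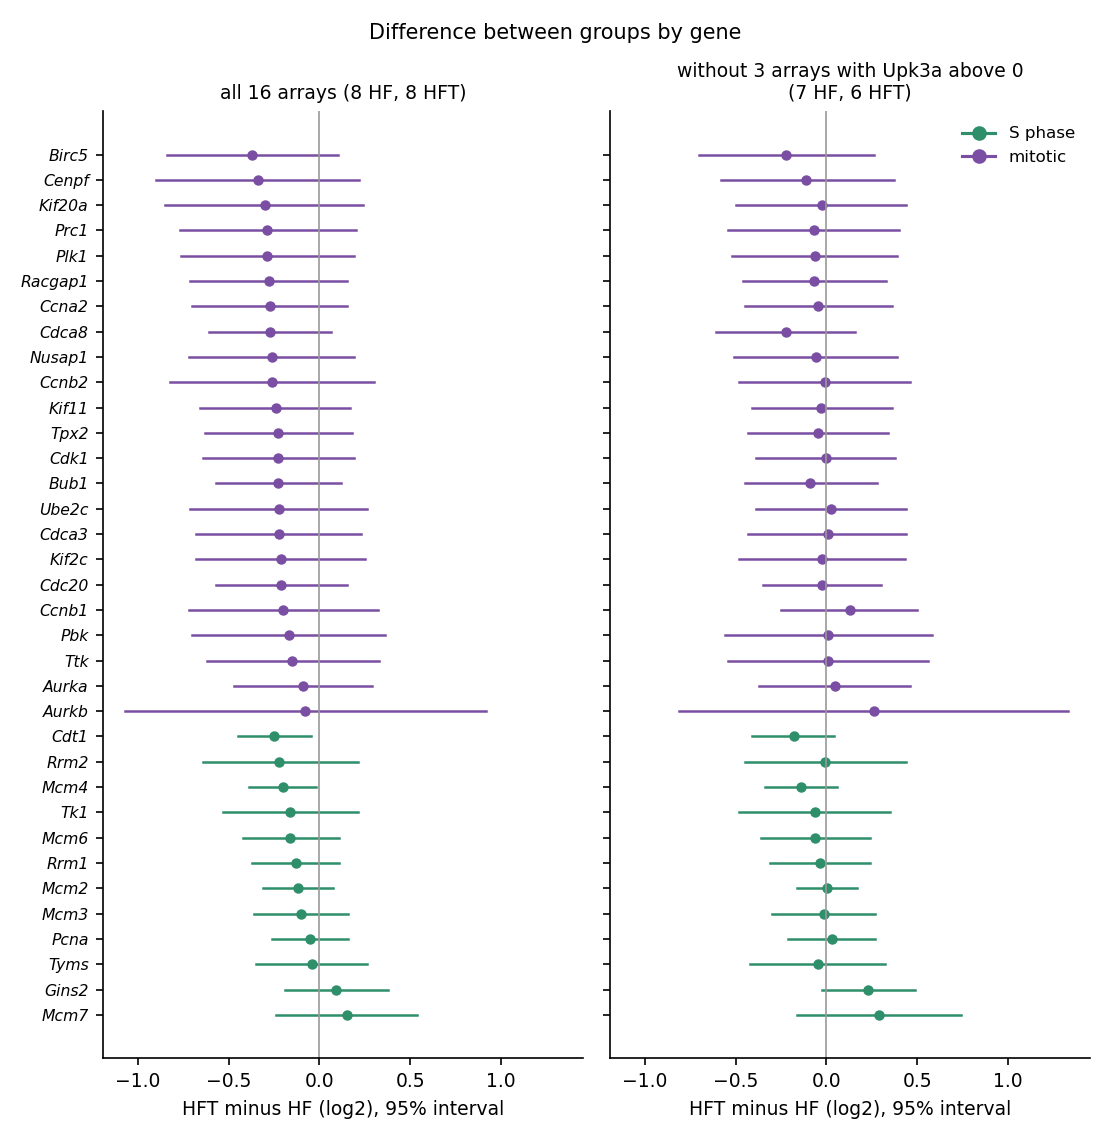
Difference HFT minus HF for each gene (point) with its 95% interval from limma (line), in log2 units, for all 16 arrays (left) and without the 3 arrays with Upk3a above 0 (right). On the left all 23 mitotic points lie below 0, and on the right the mitotic median is -0.027.

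The genes are described next in the order of the cycle, each by its lowest, median and highest animal in a group. The adjusted p of limma was 1, as rounded, for every cell cycle gene named. Licensing, the loading of the replicative helicase on DNA before S phase, needs Cdt1 and the Mcm proteins that form the helicase. Cdt1 ran from -5.32 over -5.02 to -4.75 in HF and from -5.57 over -5.28 to -5.08 in HFT. The ranges overlapped, with 8 of 8 HFT animals under the mean of HF. Its difference was -0.25 (SE 0.10, limma unadjusted p = 0.0191), and -0.18 (unadjusted p = 0.104) without the arrays with Upk3a above 0. Mcm4 ran from 0.03 over 0.33 to 0.57 in HF and from -0.17 over 0.18 to 0.33 in HFT. It too was below the HF mean in all 8 HFT animals, by a difference of -0.20 (SE 0.087, unadjusted p = 0.0333). The second kept probe of Mcm4 correlated with the first at only 0.26 over the 16 animals and had a difference of 0.41 (SE 0.26, unadjusted p = 0.13), so the 2 probes disagree in sign.

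Mcm2 ran from -1.20 over -0.93 to -0.75 in HF and from -1.43 over -0.99 to -0.92 in HFT, with HFT 22 lowest. Mcm6 ran from -2.78 over -2.21 to -1.98 in HF and from -2.68 over -2.49 to -2.08 in HFT. The ranges of both overlapped over most of their length. Their differences were -0.12 (SE 0.092, unadjusted p = 0.207) and -0.16 (SE 0.12, unadjusted p = 0.226). The second kept probe of Mcm2 also correlated with the first at only 0.26. Its difference was -0.092 (SE 0.12, limma unadjusted p = 0.461), in the same direction. Mcm7, of the same helicase, and Gins2, of the complex that activates it, had differences above 0, at 0.15 and 0.093. They were the only S phase genes on that side with all arrays, and without the arrays with Upk3a above 0 they stood at 0.29 and 0.23.

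Pcna, the sliding clamp of DNA polymerase, ran from 0.31 over 0.85 to 0.92 in HF and from 0.50 over 0.63 to 0.93 in HFT. Its difference was -0.051 (SE 0.10, unadjusted p = 0.615), a value smaller than its error. Rrm2, the regulated subunit of ribonucleotide reductase, which makes the DNA precursors, ran from 0.88 over 1.38 to 2.06 in HF and from 0.61 over 1.33 to 1.92 in HFT. It was lowest in HFT 24 and highest in HF 9, and its difference was -0.22 (SE 0.20, unadjusted p = 0.296). Of the S phase genes it had the pattern most like Cdk1, with a correlation of 0.946 over the 16 animals. Tyms, thymidylate synthase, ran from -2.92 over -2.20 to -2.03 in HF and from -2.83 over -2.42 to -1.92 in HFT. HFT 24 read -2.12 for Tyms, above the HFT median, and the difference was -0.042 (SE 0.14, unadjusted p = 0.776). Tk1, thymidine kinase, ran from -0.30 over 0.51 to 0.88 in HF and from -0.28 over 0.33 to 0.69 in HFT. Its difference was -0.16 (SE 0.18, unadjusted p = 0.376), and HFT 24 read 0.44.

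Entry into mitosis is driven by Cdk1 with its cyclins. Cdk1 ran from 0.72 over 1.28 to 1.70 in HF and from 0.19 over 1.06 to 1.77 in HFT, with HFT 24 lowest and HFT 25 highest of all 16. Its difference was -0.23 (SE 0.20, unadjusted p = 0.262), and -0.0048 without the arrays with Upk3a above 0. Ccnb1, cyclin B1, ran from -2.58 over -2.03 to -1.25 in HF and from -3.51 over -2.12 to -1.58 in HFT. HFT 24 held the -3.51, and the next HFT animal stood at -2.23. The difference of Ccnb1 was -0.20 (SE 0.25, unadjusted p = 0.428), and 0.13 without the arrays with Upk3a above 0. Ccnb2, cyclin B2, ran from -3.10 over -2.42 to -1.96 in HF and from -4.07 over -2.58 to -1.65 in HFT, again from HFT 24 to HFT 25. Its difference was -0.26 (SE 0.26, unadjusted p = 0.336). Ccna2, cyclin A2, which acts in both S phase and mitosis, was lowest in HFT 24 at -1.59 and highest in HFT 25 at 0.01.

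**Figure D5:**
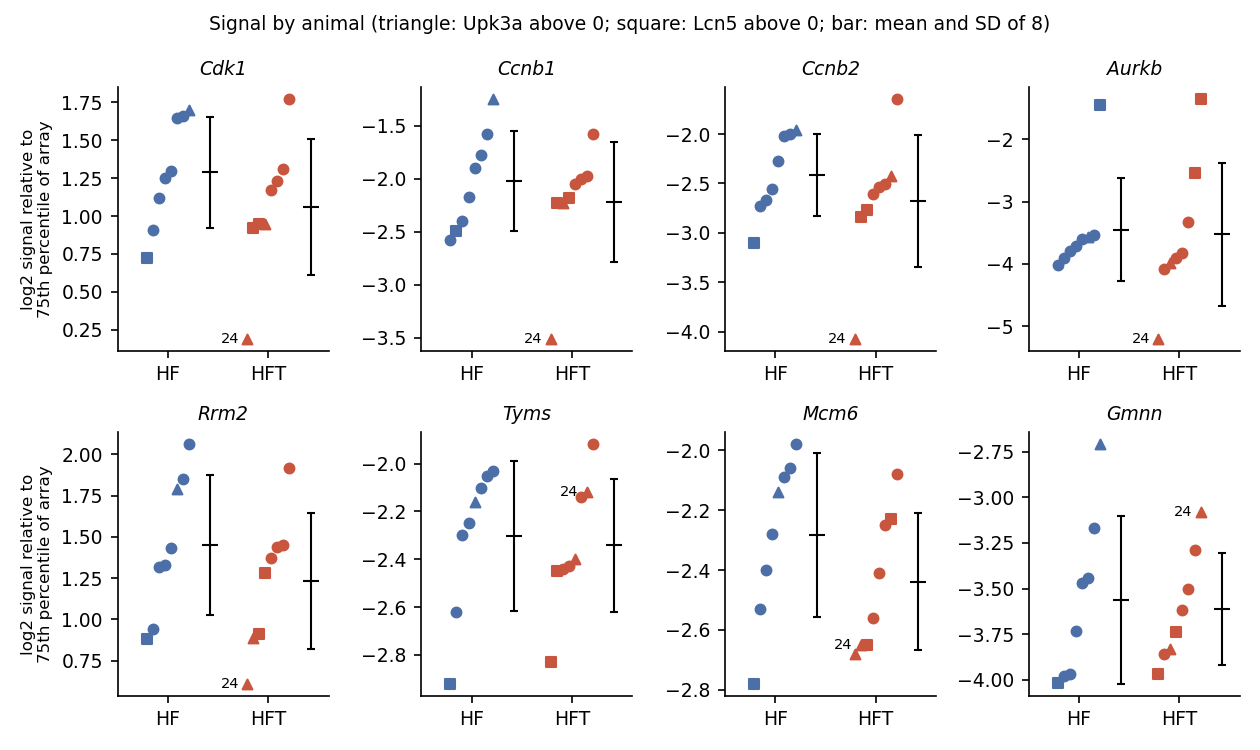
Log2 signal relative to the array's 75th percentile (y axis) of 4 mitotic genes (top) and 4 replication genes (bottom) in HF (blue) and HFT (red), a point per animal in order of level, with the mean and SD of the 8 animals beside them. Triangles mark Upk3a above 0, squares Lcn5 above 0, and HFT 24 (labelled 24) is lowest for the 4 mitotic genes and Rrm2 but not for Tyms or Gmnn.

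Plk1, a kinase of spindle assembly, ran from -0.65 over -0.21 to 0.45 in HF and from -1.34 over -0.31 to 0.46 in HFT, with a difference of -0.29 (SE 0.22, unadjusted p = 0.218). Bub1, of the spindle checkpoint, ran from -1.40 over -1.17 to -0.61 in HF and from -1.87 over -1.26 to -0.63 in HFT, with a difference of -0.23 (SE 0.16, unadjusted p = 0.178). For both, 7 of 8 HFT animals were below the HF mean, yet their highest animals were level with those of HF. The chromosomal passenger complex holds the kinase Aurkb, survivin (Birc5) and borealin (Cdca8). Birc5 had the largest difference of the mitotic genes, -0.37 (SE 0.22, unadjusted p = 0.114), and -0.22 without the arrays with Upk3a above 0. It ran from -2.76 over -2.15 to -1.31 in HF and from -3.36 over -2.40 to -2.07 in HFT, with HF 9 highest. Cdca8 had a difference of -0.27 (unadjusted p = 0.104) and was low in HFT 24 and in HFT 36, at -5.62 and -5.61.

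Aurkb departed from the other mitotic genes. It ran from -4.02 over -3.66 to -1.45 in HF and from -5.20 over -3.86 to -1.36 in HFT. The 3 highest values, -1.36 in HFT 28, -1.45 in HF 8 and -2.54 in HFT 23, were on the 3 arrays with Lcn5 above 0, and the next was -3.32 in HFT 25. The epididymal list mean on these arrays was 4.36, 4.31 and 4.06, over only 3 of 16 markers kept, and its part in the Aurkb signal was not tested. HFT 24 remained the lowest, and the difference was -0.078 (SE 0.47, unadjusted p = 0.87). With Aurkb left out, the lowest correlation between 2 mitotic genes over the 16 animals moved from -0.25 to 0.38.

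The motors and bundlers that build the spindle and split the cell followed the common pattern. Kif11, the motor that pushes spindle poles apart, ran from -2.87 over -2.39 to -1.91 in HF and from -3.46 over -2.54 to -1.84 in HFT, with a difference of -0.24 (SE 0.20, unadjusted p = 0.228). Prc1, which bundles the microtubules of the midzone, ran from -1.53 over -0.78 to -0.28 in HF and from -2.13 over -1.02 to -0.27 in HFT, with a difference of -0.29 (SE 0.23, unadjusted p = 0.225). In both genes HFT 24 was lowest and HFT 25 highest of the 16. Kif20a and Racgap1 of cytokinesis, the depolymerising motor Kif2c, the spindle proteins Tpx2 and Nusap1 and the kinetochore protein Cenpf were all lowest in HFT 24. Their differences lay between -0.34 for Cenpf and -0.21 for Kif2c. The second probe of Cenpf gave -0.50 (SE 0.23, unadjusted p = 0.0461), in the same direction.

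Exit from mitosis runs through the anaphase-promoting complex, with its activator Cdc20 and its ubiquitin carrier Ube2c. Cdc20 ran from -0.87 over -0.55 to -0.10 in HF and from -1.5 over -0.70 to -0.17 in HFT. Ube2c ran from -1.71 over -1.27 to -0.58 in HF and from -2.48 over -1.29 to -0.73 in HFT. Their differences were -0.21 (SE 0.17, unadjusted p = 0.227) and -0.22 (SE 0.23, unadjusted p = 0.34). Without the arrays with Upk3a above 0 they were -0.026 and 0.025, so the sign of Ube2c turned.

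The cell cycle genes outside the 2 lists showed no call either. Of 31 other replication genes 27 had a difference below 0, with a median of -0.11. Small unadjusted p among them were 0.105 for the checkpoint kinase Chek1 (difference -0.18), 0.145 for Rfc3 of the clamp loader (-0.17) and 0.162 for the primase subunit Prim1 (0.16). Of 27 other mitotic genes 26 were below 0, with a median of -0.21. Their smallest unadjusted p were 0.0996 for Cks1b, a partner of the cyclin-dependent kinases (-0.34), 0.118 for Incenp, the scaffold of the passenger complex (-0.24), 0.179 for Cep55 of cytokinesis (-0.32) and 0.216 for the motor Kif15 (-0.21). Without the arrays with Upk3a above 0 the 2 medians were -0.013 and -0.033. In that limma fit 1 of 31 other replication genes and 1 of 27 other mitotic genes had an unadjusted p under 0.05, both lower in HFT. Among all kept probes the share was 3.33%, in either direction. The mitotic one was Cks1b, at -0.57 (unadjusted p = 0.0113). Mki67 was not matched to a kept probe.

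The list means of upstream regulators and inhibitors varied less between animals than the mitotic list mean. Their SDs in HF and HFT were 0.084 and 0.13 for regulators and 0.091 and 0.11 for inhibitors, against 0.35 and 0.46. The spread of single genes was not compared, and genes that do not move together level out in a list mean. Of 20 regulators 15 were below 0, with a median of -0.094 and 0 at an unadjusted p under 0.05. Foxm1 and Mybl2, factors that drive the mitotic genes, had differences of -0.18 and -0.039, and both were lowest in HFT 24, at -2.26 and -2.96. E2f1, the S phase factor, stood at -0.14 (unadjusted p = 0.145) and Ccnd1, cyclin D1, at -0.18 (unadjusted p = 0.117). The smallest unadjusted p besides these were 0.134 for the repressor E2f7 (-0.19) and 0.271 for Foxm1. Of 16 inhibitors 11 were below 0, with a median of -0.092. Cdkn1a and Cdkn1b, the inhibitors p21 and p27, had differences of -0.12 and -0.092. Cdkn2a, of the p16 locus, had a difference of -0.29 (SE 0.11, unadjusted p = 0.0188), and was below the HF mean in 7 of 8 HFT animals. Btg2, an inhibitor of proliferation, was below it in all 8, with a difference of -0.30 (SE 0.14, unadjusted p = 0.0504). Cdkn1c, p57, had an unadjusted p of 0.27 (-0.093).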

How the data were processed

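Total RNA of each fat pad was labelled with Cy3 and hybridised to its own 1-colour Agilent array, per the labels. The authors deposited the output of Agilent Feature Extraction (version 10.7.3.1), not normalized between arrays. It gives a processed intensity per spot, after background subtraction and detrending, beside the raw intensities of spot and background, per the file headers. Other columns of the deposited files mark, as 0 or 1, the spots well above background and those of poor uniformity or far from their replicates. For a deposited table of log2 values, used as an alternative only, the normalization was not given in the sources used here.

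Processed intensities were put on a log2 scale and shifted by the 75th percentile of the array, taken without control spots. The spots of poor uniformity or far from their replicates were left out, replicate spots were averaged, and 23 probes with no spot left on an array were dropped. Of 30367 probes, 21808 that were well above background on at least 4 of 8 arrays of a group were kept. RefSeq accessions, without version, named 18005 probes (rat assembly GRCr8), and the probe of highest mean signal stood for a gene. HFT was compared with HF in all 16 arrays by limma 3.58.1 (lmFit, eBayes) in R 4.3.3, with the data.table package (1.17.8), no covariate, Benjamini-Hochberg adjustment over all kept probes and a threshold of 0.05. The fit was tested on simulated data. Lists are described by counts and medians, without a test. The number of arrays, rather than a depth, limits the precision.

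The members and lists were chosen with earlier results of these data known. Full values are given for members chosen by role, and of each other list for up to 4 genes of smallest unadjusted p plus Mki67, Foxm1, Mybl2, E2f1, Ccnd1, Cdkn1a and Cdkn1b. Of the genes this rule names, 2 are not reported here. Mcm4, Mcm7, Gins2, Ccna2, Cdca8, Nek2, Gmnn and Cdkn2b are described for their values, which were seen first. The alternatives were other normalizations, filters and probe rules, slide as a block, array weights, and fits without the arrays high for Upk3a or Lcn5 or without each animal. Leaving out HFT 24 in the list means, SDs and correlations, and counting its lowest genes under other normalizations, were added after the data were seen.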

Additional observations from a re-analysis of the deposited data

Results flagged for a closer look

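In 42 groups of 8 animals, a test of the gap between the most extreme animal and the next, as a share of the group's whole range, singled out 3 values. Such a test marks about 1 in 20 groups by chance, and the mitotic genes are not independent of each other. For Ccnb1, cyclin B1, HFT 24 was far below the other HFT animals, at -3.51 against -2.23 for the next, a gap of 0.66 of the range. For Aurkb, HF 8 was far above the other HF animals, at -1.45 against -3.54, a gap of 0.81 of the range. For the S phase list mean minus the mitotic list mean, HFT 24 was far above the other HFT animals, at 0.87 against 0.13, a gap of 0.62 of the range.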

How the results depend on the processing

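Limma called 0 probes under quantile normalization, normexp background correction, the deposited log2 table and both filters on dim probes. The same held with the slide block, array weights and Upk3a as a covariate. In all of these the list medians kept their sign, and no member chosen by role changed its side. Mcm4 was not among the genes followed there. HFT 24 was lowest for 20 mitotic and 2 S phase genes also with quantile normalization, normexp correction and the deposited table, which was checked after seeing the data. Without the 3 arrays with Lcn5 above 0, limma called 1 probe, of Acot5, an acyl-CoA thioesterase named after its value was seen, at -7.83 in 6 HFT and -3.45 in 7 HF animals (adjusted p = 0.0131). The limits are 8 animals per group, unknown litters and position on the slide, which cannot be told apart from group. No paired analysis was possible because the groups share no animal number.

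Several differences turned sign. Without the arrays with Upk3a above 0 they were 0.13 for Ccnb1, 0.025 for Ube2c, 0.26 for Aurkb, 0.0052 for Mcm2 and 0.032 for Pcna. Without the arrays with Upk3a or Lcn5 above 0 they were 0.056 for Cdk1, 0.17 for Ccnb1, 0.048 for Ccnb2, 0.058 for Cdc20, 0.14 for Ube2c, 0.029 for Plk1, 0.013 for Prc1, 0.005 for Mcm2, 0.02 for Pcna, 0.057 for Rrm2 and 0.014 for Tk1. That fit gave medians of 0.033 for mitotic and 0.014 for S phase genes and 0.016 for the regulators. The cause was not tested. With 1 animal left out at a time, Aurkb ranged from -0.39 to 0.21 (0.21 without HF 8, 0.16 without HFT 24, 0.00058 without HFT 26) and Tyms from -0.13 to 0.028 (without HFT 28). The mitotic median ranged from -0.34 without HFT 25 to -0.10 without HFT 24, the S phase median from -0.17 to -0.074, and their difference from 0.001 to 0.18.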

Other observations

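Of the 50 genes whose pattern over the 16 animals was most like that of Cdk1, 19 were members, 15 were in the other cell cycle lists and 16 were in no list. Among 11591 other named genes, the 50 of highest Pearson correlation with Cdk1 ranged from 0.909 to 0.989. They held 18 mitotic genes and 1 S phase gene of the members and 15 genes of the other cell cycle lists. Highest were Racgap1 (0.989), Kif11 (0.983) and Nusap1 (0.98), and without HFT 24 these 3 stood at 0.981, 0.972 and 0.969. The other 16 were in no list and are named after their values were seen. Among them were the centromere protein Cenpw (0.968), the spindle proteins Spag5 (0.966), Knstrn (0.96) and Psrc1 (0.911), the motors Kif18b (0.956), Kif20b (0.945) and Kifc1 (0.933), the centromere licensing factor Mis18a (0.954), the checkpoint protein Kntc1 (0.924), the DNA repair enzyme Ube2t (0.922) and the histone chaperone Asf1b (0.912). These correlations are descriptions over arrays that share a normalization.

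Over 11592 named genes, 222 were more than 1 log2 unit below the mean of the other 15 animals on HFT 24. Of these, 28 (12.6%) belonged to the 129 kept genes of the cell cycle lists, 18 of them to the members. The other genes of the 222 are not described here.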
